A study of Homo sapiens with 12 samples.

Results

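MYC encodes a transcription factor of growth and division, and the sequence that follows it on chromosome 8 holds few protein-coding genes over more than a megabase. The stretch described here is a window of 3.5 Mb (GRCh38) that begins 735 kb before MYC, and it was searched for called intervals of every histone mark of the series. Within it lie MYC (127735434 to 127742951), the long non-coding RNA genes PVT1 (127794524 to 128101256) and CCDC26 (129351694 to 129680239), and GSDMC (129705435 to 129786624), which encodes gasdermin C, a member of a family of pore-forming proteins. The window held 2547 of the 1465348 deposited intervals used, which joined to 397 of 317369 regions. The window and its 4 genes were chosen by the called regions they hold in these same data, so their values are given as descriptions without a test. At the lower limit an H3K27me3 region of 7000 bp crossed into the window, the nearest region outside was 1350 bp of H3K4me2 and the nearest inside 2500 bp of H3K27me3. At the upper limit an H3K27me3 region of 5000 bp crossed it, with 106500 bp of H3K27me3 just inside and 4000 bp of H3K27me3 just outside.

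The cells were KBM-7, established from a patient with chronic myeloid leukaemia, whose genome is almost haploid but is known to keep an extra copy of chromosome 8. No treatment is named in the labels. Chromatin was crosslinked with formaldehyde and sonicated, and 9 modifications were immunoprecipitated and sequenced once each: acetylation of H3K9, H3K27 and H4K16, and methylation as H3K4me3, H3K4me2, H3K4me1, H3K79me2, H3K36me3 and H3K27me3. With 3 input libraries beside them and 1 library per mark, no value can be set against replicate error. H3K36me3 and H4K16ac were precipitated with different antibodies by the labels, yet their 45695 intervals were identical in the file, so which mark they stand for cannot be told apart and they are treated as 1 set, which leaves 8 sets. The file gives positions only, without a count or score, so the depth behind each call is unknown.

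H3K4me3 and H3K9ac mark the starts of active genes. H3K4me1 and H3K4me2 mark enhancers and the flanks of starts, and H3K27ac marks the enhancers and starts in use. H3K79me2 follows the early part of a transcribed gene, H3K36me3 its later part, and H3K27me3 is laid down by Polycomb at silent sequence. MYC is known to be controlled by enhancers scattered through the gene desert on both sides, among them a distant cluster used by blood stem cells and by leukaemias. The tables used here give no strand for these genes. As background, MYC and PVT1 are transcribed toward higher coordinates, and CCDC26, GSDMC, CYRIB and ASAP1 toward lower ones. Distances below are from the lower annotated end of MYC, where its transcription begins, to the nearest edge of a region. A gene was counted as holding a mark at an end where a region overlapped 1 kb to either side of an annotated end.

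The label of the cells was checked against marker genes. H3K4me3 was at an end of 6 of 8 genes of blood progenitors and myeloid leukaemia lines, GATA2, LYL1, CD34, SPI1, RUNX1 and MYB, and at an end of 0 of 18 genes that define T, B, mature myeloid, erythroid, liver or keratin-bearing cells, where 51.3% of protein-coding genes had it. Among the 18, MPO had H3K27ac at an end. KIT had H3K27me3 and no H3K4me3, and H3K4me3 lay in the body of 2 of the 18 other genes. The rest of chromosome 8 had more cover than the median of the other autosomes for all 8 sets, for example 35.0% against 32.0% for H3K27me3 and 2.58% against 1.37% for H3K4me1. How far the extra copy of the chromosome enters the values of the window was not tested, so they are set beside the rest of chromosome 8 as well as the genome.

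H3K27ac had the highest ratio of the 8 sets in the MYC window. It was also the sparsest set, with 3368 regions in the genome, and how far this enters its ratio was not tested. Its 11 regions covered 34.8 kb, or 0.994% of the window, against 0.0853% of the usable genome and 0.122% of the rest of chromosome 8, ratios of 11.7 and 8.18. Of 804 adjoining windows of the same length across the genome, the MYC window held the most H3K27ac. The next window had 0.964% and the median of the others was 0.0386%. By number of regions it did not lead: 89.7% of the other windows held fewer, so the lead rested on wide regions. The median width of the 11 regions was 3300 bp against 600 bp over the genome.

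The other sets were raised by smaller factors. H3K4me1 covered 5.80% of the window in 84 regions, 3.82 times the genome and 2.24 times the rest of chromosome 8, and ranked 15 of 804 windows and 3 of 40 on the chromosome. H3K79me2 covered 7.14% in 24 regions, 2.97 and 2.56 times the same backgrounds, and ranked 29 of 804 and 1 of 40. By number of regions, 79.3% of the other windows had fewer of H3K4me1 but only 40.2% fewer of H3K79me2. The H3K36me3/H4K16ac set covered 17.7% in 38 regions and ranked 48. H3K9ac covered 1.46% in 21 regions and ranked 113, and H3K27me3 covered 46.2% in 155 regions and ranked 156. H3K4me2 covered 4.15% in 53 regions and ranked 166. H3K4me3 was the exception, with 0.677% in 11 regions, 1.23 times the genome but 0.912 times the rest of chromosome 8, and rank 218.

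**Figure D1:**
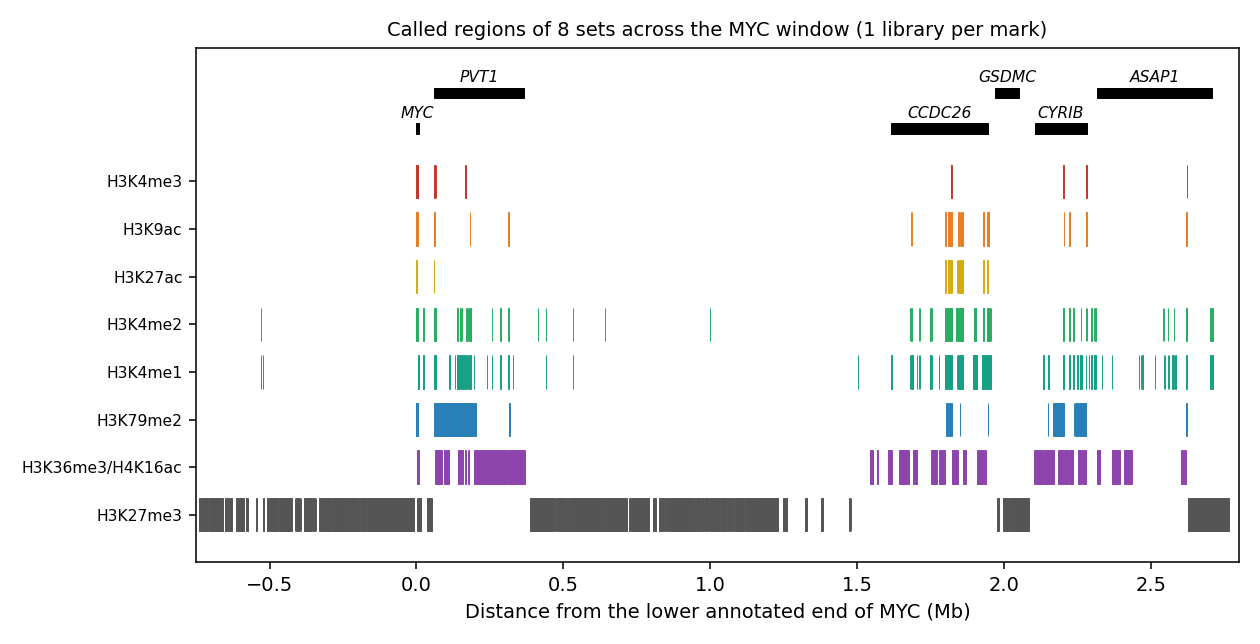
Called regions of the 8 sets by distance from the lower annotated end of MYC in Mb, with the annotated spans of 6 genes as black bars (very narrow regions are drawn at a minimum line width). The 11 H3K27ac regions fall at MYC, at the start of PVT1 and in the upper part of CCDC26, while H3K27me3 covers 77.0% of the sequence before MYC and 63.3% of that between PVT1 and CCDC26.

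**Figure D2:**
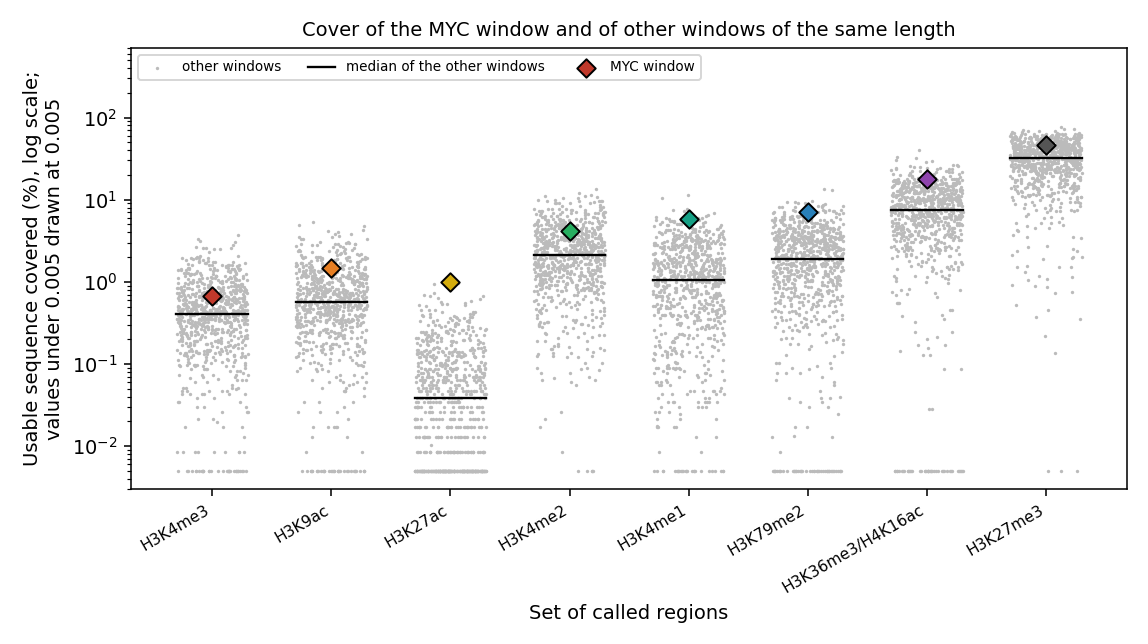
Share of usable sequence covered by each set in the MYC window (diamonds) and in 803 other windows of the same length (grey points, black line at their median), on a log scale. The H3K27ac diamond, at 0.994%, lies above all other windows, whose highest value is 0.964%, while H3K4me3 at 0.677% lies within them.

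The 4 genes differed in the marks at their ends. H3K4me3 was at 2 of 4, MYC and PVT1, where 23.1% of 59094 annotated genes of every biotype had it. MYC, PVT1 and CCDC26 had H3K9ac (25.7% of all genes), H3K27ac (3.26%), H3K4me2 (35.2%), H3K79me2 (17.6%) and the H3K36me3/H4K16ac set (19.4%), each 3 of 4. H3K4me1 was at 2 of 4, the end of MYC and both ends of CCDC26 (13.8%). H3K27me3 was at 2 of 4, the end of MYC and the start of GSDMC (37.7%). Since these genes were chosen with their marks known, nothing is read from the shares of all genes.

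MYC carried regions of all 8 sets at its ends, arranged along the gene. A single H3K4me3 region of 6450 bp (127734301 to 127740750) covered the start and 70.7% of the gene, and only 20 of the 14803 H3K4me3 regions of the genome were wider (rank 21, or 70 with gaps of up to 1 kb closed). H3K9ac formed 1 region of 6150 bp over the same sequence (rank 44 of its set), H3K4me2 1 of 7650 bp, and H3K79me2 1 of 7050 bp. The H3K27ac region of MYC was 600 bp at the start (127735351 to 127735950), the median width of this mark over the genome. H3K4me1 had 0 bp within 1 kb of the start and covered 33.3% of the gene in 3 regions toward its end, of which the first shared 750 bp with the H3K4me3 region.

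The body of MYC also carried H3K27me3, over the same sequence as marks of active genes. H3K27me3 covered 52.6% of MYC and the H3K36me3/H4K16ac set 65.9%, and both began at 127738001. The intervals of both sets lie on a grid of 500 bp, so the common start is known only to that step. The 2 sets shared 3951 bp inside MYC, and 4000 bp in the whole window of 3.5 Mb. H3K27me3 also shared 2750 bp with H3K4me3, 2300 bp with H3K9ac and 3000 bp with H3K79me2 in the gene. In the window as a whole the H3K27me3 overlap with these 3 sets was the same 2750, 2300 and 3000 bp, so all of it lay in MYC. Among 1172 protein-coding genes with both H3K4me3 and H3K27ac at an end, 49 (4.18%) had any H3K27me3 in the body and 4, MYC included, had at least the MYC share. By the labels H3K27me3 had an input library of its own. From intervals alone, marks on the same copy of the chromosome and on different copies or cells cannot be told apart.

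Carrying all 8 sets at the ends was rare. Besides MYC it was found at SIGLEC6 on chromosome 19, ATP6V1B2 on chromosome 8 and LOC124900641 on chromosome 4, which makes 4 of 19970 protein-coding genes. ATP6V1B2, a subunit of the proton pump of lysosomes, was the only other protein-coding gene of chromosome 8 with this pattern. Their distance to MYC in covered bp within 5 kb of the ends, over the 8 sets, was 9087 bp for SIGLEC6, 9649 bp for ATP6V1B2 and 11635 bp for LOC124900641. Of these 3 genes SIGLEC6 had the most H3K4me3 within 5 kb, 3431 bp against 6450 bp at MYC.

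The sequence before MYC was under H3K27me3 with almost nothing else. From the lower limit of the window to the gene, 735 kb, H3K27me3 covered 77.0% in 63 regions, and a run of 520.2 kb (127213351 to 127733550) held no other set. That run ended where the H3K4me2 region of MYC began. The fifth widest H3K27me3 region of the window, 41500 bp (127684501 to 127726000), ended inside CASC11, a long non-coding RNA gene next to MYC. Between MYC and PVT1, 51.6 kb, H3K27me3 covered 48.6%. An element of H3K4me1 (127758301 to 127761300, 3000 bp) with H3K4me2 over 2700 bp lay 22.9 kb from the MYC start, and H3K27ac had 0 regions there. The H3K27me3 cover ended at 127788000, before the PVT1 start.

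PVT1 hosts several microRNAs, and its start is known to compete with that of MYC for enhancers. Most of PVT1 carried H3K79me2 or the H3K36me3/H4K16ac set. At its start lay a region of 3300 bp of H3K4me3, 59.0 kb from MYC, beside a region of 2850 bp of H3K9ac. The H3K27ac region was 900 bp wide (127795201 to 127796100) and covered the microRNA gene MIR1204. H3K27me3 covered 0% of the gene. H3K79me2 covered 46.2% of PVT1 and the H3K36me3/H4K16ac set 75.2%. Among 987 lncRNA genes of at least 100 kb, 1 had more H3K79me2 and 1 more H3K36me3/H4K16ac, and the median was 0% for both sets. Among 16810 protein-coding genes of at least 5 kb such cover was less rare. At least as much H3K79me2 was found at 5.42% of them, and at least as much H3K36me3/H4K16ac at 15.1%.

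H3K79me2 lay in the early part of PVT1 and the H3K36me3/H4K16ac set reached its highest cover in the later part. H3K79me2 formed a region of 121950 bp (127794601 to 127916550), the widest of its 31865 regions in the genome, where the next was 69300 bp. In the file this region is split into touching intervals, the widest of them 40650 bp, which rank 21, and with gaps of up to 1 kb closed it ranked 3. With the gene cut into 10 equal pieces from its start, H3K79me2 covered 99.7%, 100%, 100%, 97.8% and 62.6% of the first 5, and then 0%, 0%, 0%, 1.956% and 0%. The H3K36me3/H4K16ac set covered 71.7%, 60.3%, 31.0%, 45.6% and 56.7% of the first 5. It covered 98.4%, 100%, 100%, 88.6% and 100% of the others, so its cover was highest where H3K79me2 was nearly absent. The 3 widest H3K36me3/H4K16ac regions of the window, of 65000, 54000 and 45000 bp, all lay in PVT1.

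PVT1 held 18 H3K4me1 regions and 1 H3K27ac region. The 18 H3K4me1 regions, 750 to 5400 bp wide, covered 14.2% of the gene, and 6 of 987 long lncRNA genes had more. H3K4me2 overlapped 10 of the 18 (76.2% of the 42673 H3K4me1 regions of the genome), H3K79me2 13 (21.2%) and the H3K36me3/H4K16ac set 14 (10%). H3K9ac overlapped 3 (13.4%), H3K4me3 1 (4.05%), H3K27ac 0 (3.65%) and H3K27me3 0 (6.23%), shares near those of the genome. The H3K9ac regions away from the start were small, 600 bp at 181.6 kb from MYC and 750 bp at 313.3 kb. The H3K4me3 region farthest into PVT1, of 1500 bp, lay 165.7 kb from MYC and overlapped H3K79me2 and H3K36me3/H4K16ac but no H3K4me1, H3K4me2, H3K9ac or H3K27ac.

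**Figure D3:**
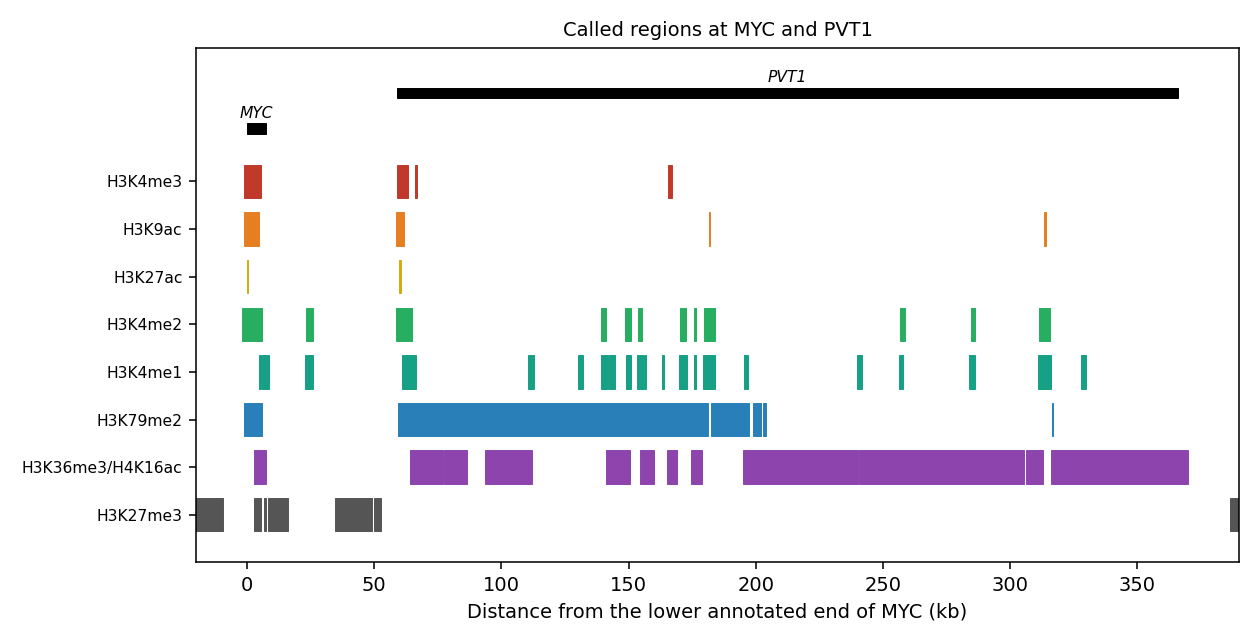
Called regions of the 8 sets at MYC and PVT1 by distance from the lower annotated end of MYC in kb. The H3K79me2 block of 121950 bp fills the first part of PVT1 and H3K36me3/H4K16ac is densest in the later part, while H3K27me3 lies before MYC, within MYC and between both genes, and covers 0% of PVT1.

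From PVT1 to CCDC26 the window was a desert of 1250 kb. H3K27me3 covered 63.3% of it in 77 regions, among them the second and the third widest of the window with 59500 and 50000 bp. H3K4me3, H3K9ac, H3K27ac and H3K79me2 had 0 regions there, H3K4me1 had 3 and H3K4me2 5. The H3K36me3/H4K16ac set had 4 regions there, over 27.4 kb or 2.19% of the stretch. The H3K27me3 cover ended well before CCDC26. By bins of 100 kb it was 93.5% at 1100 to 1200 kb from MYC, 40.07% in the next bin, 17% and 7.5% in those after it, and 0% from 1500 kb to 1900 kb. The longest run without any of the 8 sets, 87 kb, began 1384 kb from MYC.

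CCDC26, a long non-coding RNA gene with no known protein product, held most of the H3K27ac of the window. It makes up 9.39% of the window's length and held 90.1% of its H3K27ac cover, 56.3% of its H3K9ac and 40.1% of its H3K4me1. H3K27ac covered 9.54% of the gene, the highest share among the 987 lncRNA genes of at least 100 kb. H3K27me3 covered 0%. Without CCDC26 and the sequence up to GSDMC, the H3K27ac ratio of the window to the genome fell from 11.7 to 0.559, that of H3K9ac from 1.84 to 0.781 and that of H3K4me2 from 1.52 to 0.931. H3K4me1 stayed above the genome at 2.36, and H3K79me2, which lies mainly at PVT1, at 3.03.

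The 9 H3K27ac regions of CCDC26 all lay in its upper part, toward the start of the gene, 1800.1 to 1943 kb from MYC. Joined over the gap commonly used to stitch enhancers they formed 3 stretches. The first (129535501 to 129558450) had 13650 bp of H3K27ac in 3 regions, the second (129574501 to 129594900) 12150 bp in 4 regions and the third (129664501 to 129682200) 7500 bp in 2 regions. They ranked 4, 5 and 17 among 2196 stretches of the genome, whose median was 600 bp and of which 69.6% were a single region. Of the 794 stretches over 10 kb from any end of a protein-coding gene, the first and the second had the most H3K27ac. The nearest such end was that of GSDMC, 147.0, 110.5 and 23.2 kb away. MYC and PVT1 had 600 and 900 bp, which ranked 1078 and 733.

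The first stretch held the widest H3K27ac region of the genome. It measured 8400 bp (129550051 to 129558450), the next widest anywhere was 6750 bp, and it also ranked 1 among the intervals as deposited, with 7350 bp. H3K4me2 covered all 8400 bp of it, H3K4me1 7500 bp, H3K79me2 6900 bp and H3K9ac 5700 bp. H3K4me3 lay on 2700 bp of it in 2 regions of 1200 and 1500 bp. They were the only H3K4me3 regions of CCDC26. The wide H3K4me2 region over them, 14550 bp, ranked 8 of 50132.

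The second and the third stretch had 0 bp of H3K4me3 and less H3K79me2, 8.09% and 10.2% of their span against 75.2% of the first. Both also had H3K36me3/H4K16ac, over 24.0% and 28.2% of their span, where the first had 0%. In the second, 2 H3K27ac regions of 5250 and 5100 bp ranked 5 and 6 in the genome by width. An H3K4me1 region of 9900 bp, rank 10 of 42673, lay within this stretch, and H3K9ac covered 50.7% of it. In the third, a region of 4200 bp (129678001 to 129682200, rank 9) spanned the start of CCDC26. That start thus had H3K27ac, H3K9ac, H3K4me1, H3K4me2 and H3K79me2, with 0 bp of H3K4me3 within 1 kb. Of 465 lncRNA genes with H3K27ac at an end, 103 were without H3K4me3 at either end (22.2%, Wilson 95% interval 18.6 to 26.1, counting error only).

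Of the 9 H3K27ac regions of CCDC26, 9 overlapped H3K4me1 (46.9% of the 3368 H3K27ac regions of the genome), 9 H3K4me2 (96.9%) and 8 H3K9ac (77.1%). H3K79me2 was on 5 (33.9%), H3K36me3/H4K16ac on 3 (1.84%), H3K4me3 on 1 (38.4%) and H3K27me3 on 0 (0.594%). The counts for H3K4me2, H3K9ac and H3K27me3 were thus near the share of all H3K27ac regions. Of the 1503 H3K27ac regions of the genome farther than 2 kb from any annotated end, 70.9% overlapped H3K4me1 and 14.5% H3K4me3. For the 69 on the rest of chromosome 8 it was 89.9% and 10.1%. The H3K4me3 count in CCDC26 was near both shares, and the H3K4me1 count near that of the rest of chromosome 8. Of the 9 regions, the one without H3K9ac was that of 1200 bp at 1839 kb. H3K79me2, which in PVT1 ran along the gene, in CCDC26 came in 7 separate regions of 1200 to 5250 bp, and 7 of 7 overlapped H3K27ac. Of H3K79me2 regions farther than 2 kb from any annotated end, 1.13% of 20867 over the genome overlapped H3K27ac. On the rest of chromosome 8 it was 2.40% of 542, and in the window 6 of 17 (35.3%). The 7 regions of CCDC26 also include that at its start, which is not so far from an end. The H3K36me3/H4K16ac set lay mostly outside the acetylated regions: it covered 43.01% of CCDC26 and shared 1450 of the 31339 bp of H3K27ac in the gene. Of the 25 H3K4me1 regions of CCDC26, 10 overlapped H3K27ac, against 3.65% over the genome. The other 15 included that of 6600 bp at 1899 kb, rank 87 of its set, which lay between the second and the third stretch.

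**Figure D4:**
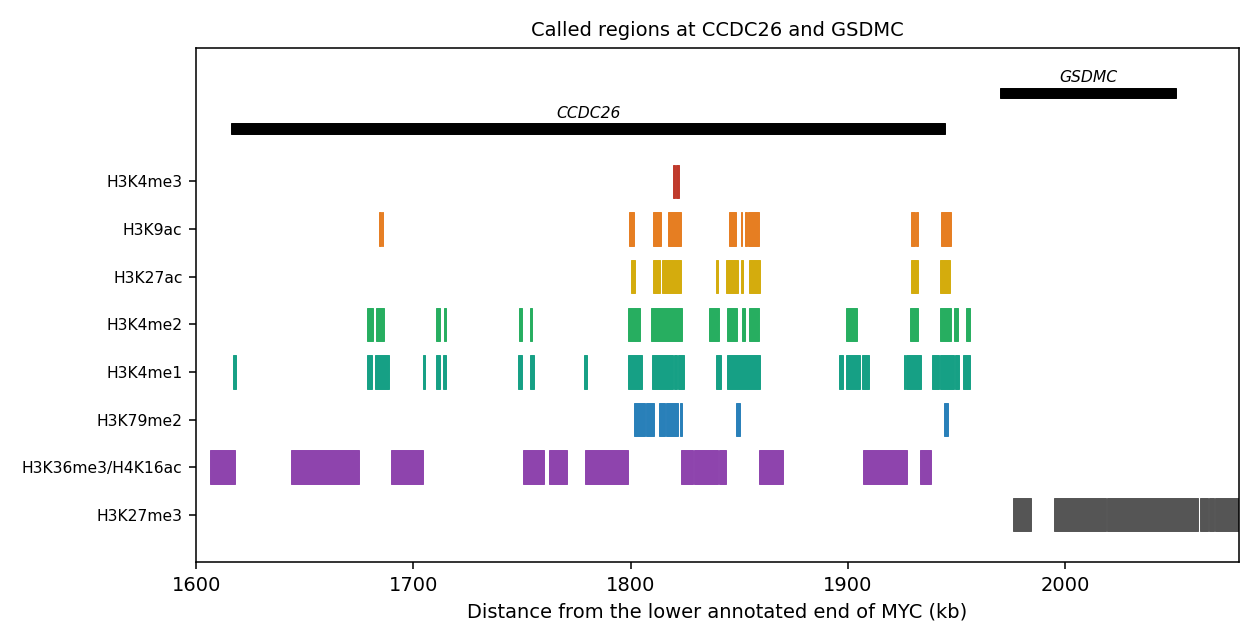
Called regions of the 8 sets at CCDC26 and GSDMC by distance from the lower annotated end of MYC in kb. The 9 H3K27ac regions lie in 3 stretches in the upper part of CCDC26, H3K36me3/H4K16ac lies mostly outside those regions, and H3K27me3 is at 0% from CCDC26 up to GSDMC.

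GSDMC, whose lower end lies 25.2 kb beyond CCDC26, had H3K27me3 over 78.4% of its length and 0% of each of the other 7 sets. The H3K27me3 cover included its start, which is the upper end. A share at least as high was found at 15.1% of 16810 protein-coding genes of at least 5 kb. The sequence between CCDC26 and GSDMC had 0% H3K27me3, and H3K4me1 covered 35.8% of it. H3K4me2 covered 25.6% of it, H3K9ac 11.4% and H3K27ac 7.78%.

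**Figure D5:**
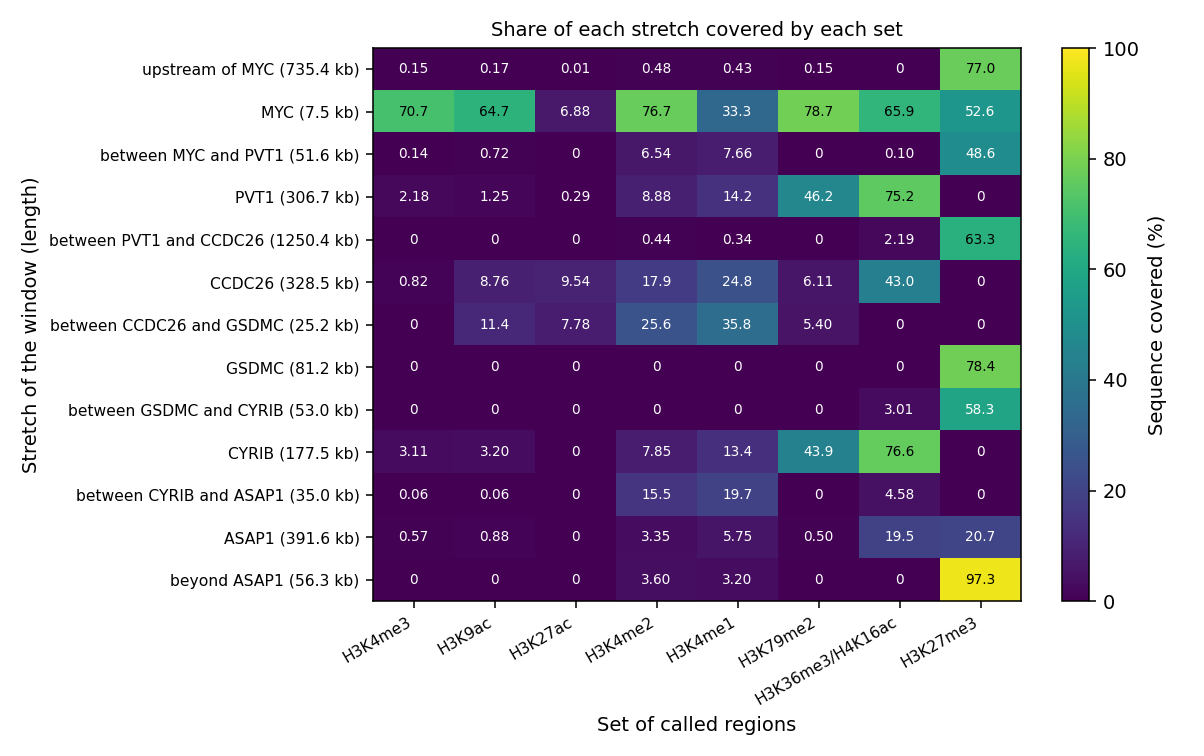
Percentage of each stretch of the window covered by each set, with stretches cut at the annotated ends of 6 genes and listed from low to high coordinates. H3K27me3 is at 0 in PVT1, CCDC26 and CYRIB and covers 77.0% before MYC and 78.4% of GSDMC. H3K27ac is highest in CCDC26 at 9.54%, followed by 7.78% between CCDC26 and GSDMC and 6.88% in MYC.

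The H3K4me1 regions away from gene ends were described by the marks they overlapped. Of 65 H3K4me1 regions farther than 2 kb from any annotated end, 9 overlapped H3K27ac (13.8%, Wilson 95% interval 7.46 to 24.3), against 3.39% of 29152 over the genome and 4.70% of 1299 on the rest of chromosome 8, and all 9 lay in CCDC26. All 65 were at or above the median width of H3K4me1 regions. Among the 16529 distal regions of the genome that wide, 5.23% overlapped H3K27ac, 83.7% H3K4me2, 10.5% H3K9ac and 19.2% H3K79me2. Their shares were 10.4% for the H3K36me3/H4K16ac set, 5.98% for H3K27me3 and 2.01% for H3K4me3. H3K9ac was on 13 (20%, 12.1 to 31.3; 7.95% over the genome) and H3K79me2 on 21 (32.3%, 22.2 to 44.4; 18.5%). The H3K36me3/H4K16ac set was on 27 (41.5%, 30.4 to 53.7; 9.1%). H3K4me2 was on 39 (60%, 47.9 to 71.03; 71.5%), H3K27me3 on 4 (6.15%, 2.42 to 14.8; 6.73%) and H3K4me3 on 3 (4.62%, 1.58 to 12.7; 1.76%). Regions of 1 gene share their source, and the intervals cover counting error only. The rest of chromosome 8 had 25.8% for the H3K36me3/H4K16ac set, 13.5% for H3K9ac and 5.62% for H3K4me3, all above the genome. For H3K4me3 this was also above the window. H3K79me2 stood at 18.9% there, H3K27me3 at 12.7% and H3K4me2 at 70.4%.

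MYC works in a network of related factors, most of which bind DNA as pairs with MAX or MLX. In the network of 13 genes H3K27ac was at an end of 1, MYC, a count near the 6.42% of 19970 protein-coding genes that had it. H3K4me3 was at 10 of 13 (51.3% of all), H3K9ac at 11 (55.1%), H3K4me2 at 12 (67.7%) and H3K79me2 at 7 (35.9%). The H3K36me3/H4K16ac set was at 8 (34.8%), H3K4me1 at 5 (23.1%) and H3K27me3 at 3 (32.5%). Farther than 1 kb from the ends, H3K27ac covered 3900 bp inside MAX. Within 5 kb of the ends it covered 450 bp at MGA and 253 bp at MLX. Of the MYC paralogs, MYCN (chromosome 2, 15940550 to 15947004) had H3K27me3 over 84.5% of its length and 750 bp of H3K4me3 within 5 kb, all of it farther than 1 kb from its ends. H3K4me2 and H3K9ac lay at its start and covered 59.7% and 27.9% of the gene, and the H3K36me3/H4K16ac set covered 23.2%. These covers are too large to lie wholly outside its H3K27me3. MYCN, like MYC, thus had H3K27me3 over part of the same sequence as these sets. MYCL had 900 bp of H3K4me3 within 5 kb and no H3K27me3.

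The partners MAX and MLX had 1500 and 3054 bp of H3K4me3 within 5 kb of their ends. The same measure was 6450 bp at MYC, the highest of the network. The repressor genes of the network, which compete with MYC for MAX, had 2250 bp at MXD1, 3000 bp at MXD3, 750 bp at MXD4, 2850 bp at MXI1 and 1050 bp at MNT, all with H3K4me3 at an end. MGA had 240 bp, outside the window of 1 kb. Its body as a whole held 1050 bp of H3K4me3, with H3K79me2 over 26.9% and the H3K36me3/H4K16ac set over 50.4% of the gene. Of the glucose-responsive partners of MLX, MLXIP had 1800 bp, whereas MLXIPL had 0 bp and H3K27me3 over 100% of its length.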

How the data were processed

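The authors deposited 1 list of called intervals, each given by its position on GRCh38 and a label of the mark, with no count, signal, score or depth. The submitters' processing notes name cutadapt, Bowtie2 and MACS; the sources used here give no versions or thresholds. The labels assign 1 of 3 inputs to each mark. The file names 1 more mark that fits no sample, and its intervals were left out. Starts were brought to a count from 1 by their remainder on the interval grid, and intervals of the same mark that overlapped or touched were merged to regions on chromosomes 1 to 22 and X. Usable sequence, 2850 Mb, leaves out 33 unmarked runs, each 1 Mb or longer. Genes came from a RefSeq table of GRCh38.p14 without strand for chromosome 8, and no sequence of the window was used here. Compared windows had at least 50% usable sequence. Distal regions lay farther than 2 kb from any annotated gene end. Calculations used python 3.11.15, numpy 2.4.6 and pandas 2.3.3, and the interval functions were tested on simulated data.

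The members, the gene lists and the alternatives were chosen with earlier results of these data known. The named genes were the 4 genes, other annotated genes of the window with a mark at an end, the 13 network genes, and of regions every H3K27ac stretch and the widest of each set. SIGLEC6 and LOC124900641, and the width ranks, were added after their values were seen. With 1 library per mark no p-value was computed.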

Additional observations from a re-analysis of the deposited data

How the results depend on the processing

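Ratios, counts and ranks by width were called moved past 1.5 times the first value, and percentages outside its Wilson interval. Of 157 alternatives, 24 moved a value and 133 did not. H3K4me1 cover stood at 2.24 times the rest of chromosome 8. Without CCDC26 and the sequence up to GSDMC, a choice made after seeing the data, the ratios to the genome were 0.781 for H3K9ac, 0.559 for H3K27ac, 0.931 for H3K4me2 and 2.36 for H3K4me1. H3K79me2 regions numbered 14 when joined over gaps of up to 1 kb. H3K27me3 regions numbered 40 in that way, 2270 as deposited and 100 among regions of at least the median width. Ranked by number of regions in place of covered bp, the share of other windows with fewer was 89.7% for H3K27ac, 79.3% for H3K4me1, 58.5% for H3K9ac, 55.3% for H3K27me3, 50.3% for H3K4me2, 44.3% for H3K36me3/H4K16ac, 40.8% for H3K4me3 and 40.2% for H3K79me2. With windows shifted by 50% of their length it was 91.5% for H3K36me3/H4K16ac. Where 50% of a distal H3K4me1 region had to be covered, H3K36me3/H4K16ac was on 29.2%. H3K4me1 was at 8 network genes within 2.5 kb of an end and at 3 where 500 bp had to be covered. The H3K4me3 region of MYC ranked 16 as deposited and 70 with gaps of up to 1 kb closed. The cause of these shifts was not tested. The unknown depth limits all values: from the file, sequence without a mark and sequence too thinly read for a call cannot be told apart. No paired analysis was possible because each mark has 1 library.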

Other observations

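Of 50 annotated genes that overlap the window, 15 had H3K27me3 and no other set at an end (29.4% of 59094 annotated genes) and 6 had none of the 8 sets (27.2%). Among the long non-coding RNA genes before MYC, H3K27me3 covered from 8.56% of CCAT2, 16.8% of CCAT1, 29.5% of PCAT2 and 35.6% of CASC19 to 79.5% of CASC8, 79.7% of CASC21 and 100% of PCAT1. It also covered 100% of POU5F1B, a retrogene related to POU5F1. CCAT1 had 1419 bp of H3K4me2 and 1350 bp of H3K4me1 at its lower end and no H3K27me3 at either end. CASC11, next to MYC, had 667 bp of H3K4me3 and 817 bp of H3K9ac at its upper end, in the regions that cover the MYC start.

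Beyond GSDMC, CYRIB, which encodes a regulator of RAC1 signalling, had H3K79me2, the H3K36me3/H4K16ac set and no H3K27ac. The H3K36me3/H4K16ac set covered 76.6% of it and H3K79me2 43.9%, with H3K4me3 regions of 1800 and 1500 bp at or near the start and of 2250 bp inside the gene. The inner H3K4me3 region shared 1950 bp with an H3K79me2 region of 37650 bp, rank 52 in the genome. ASAP1, which encodes a GTPase-activating protein for ARF factors, had H3K27me3 over 20.7% of its length, with the widest H3K27me3 region of the window, 106500 bp and rank 41 of 117702, over its annotated start. Its only H3K4me3 region, of 2250 bp, lay inside the gene, 2621 kb from MYC.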
